A study of Mus musculus with 23 samples.

Results

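The comparison set 3 arrays of lamin A/C KO (knockout) gastrocnemius muscle taken 4 days after an injection against 3 arrays of lamin A/C KO gastrocnemius labelled as taken 0 days after it, which are 6 of the 23 arrays of the study. The study staged the degeneration and regeneration of muscle in mice that lack emerin or lamin A/C. Besides these 6 arrays it holds 3 lamin A/C KO arrays on day 3, 2 control arrays on each of days 4, 3 and 0, and 3, 3 and 2 emerin KO arrays on days 4, 3 and 0. The labels do not give the allele of either KO, the injected agent, or the strain, age or sex of the mice. Control and emerin KO muscle on day 0 is labelled as not injected, whereas the lamin A/C KO muscle on day 0 is labelled as taken 0 days after injection, and injection and genotype cannot be told apart in any day 0 difference between them. Whether each array stands for a mouse of its own is not labelled, and the p-values therefore rest on the scatter of these arrays, which may be technical.

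A-type lamins line the inside of the nuclear envelope, and mutations in their gene or in the gene of emerin cause Emery-Dreifuss muscular dystrophy. Injured skeletal muscle passes through an ordered program. Damaged fibers break down and are cleared by macrophages, satellite cells divide as myoblasts, and the myoblasts then differentiate and fuse into new fibers that at first carry embryonic and fetal forms of the contractile proteins. Each array measured the RNA of a whole muscle, so that fewer cells of a type and less RNA per cell cannot be told apart in any value below.

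The signal of each probe set is a MAS5 value, a robust average over its probes, rescaled here to a trimmed mean of 500 per array. Differences are log2 differences of signal + 32 between day 4 and day 0, positive where day 4 was higher, with their standard error (SE) and a Benjamini-Hochberg adjusted p from limma over 11164 genes, and a gene is said to pass the threshold at an adjusted p under 0.05. Where all 3 arrays of a group lay under a signal of 100, the fold is given as a bound against that minimum. The signals of different genes come from different probes and are not compared with each other. The first principal component of the 6 arrays held 71.5% of the variance and separated day 4 from day 0. Correlations between arrays were 0.964 to 0.972 within day 4, 0.938 to 0.962 within day 0 and 0.822 to 0.855 between the days. RNA integrity, read as the Gapdh 3'/5' signal ratio, lay at 0.822 to 0.888 for day 4 arrays and at 0.852 to 0.963 for day 0 arrays.

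The targeted gene, Lmna, was read by several probe sets. On the brightest of them the lamin A/C KO arrays gave 60, 71 and 81 on day 4 and 68, 57 and 109 on day 0, all near or under the minimum. Control arrays on the same probe set gave 3786 and 3704 on day 4 and 924 and 857 on day 0. The lamin A/C KO arrays therefore match their label on this probe set, and the day 4 minus day 0 difference there was -0.07 ± 0.18 (SE, limma adjusted p = 0.78). The other 3 Lmna probe sets gave means of 687, 274 and 247 on day 4 and 606, 132 and 89 on day 0, and no source used here says whether they lie inside the deleted part. Emd, the gene of emerin, gave 684, 680 and 770 on day 4 and 810, 670 and 846 on day 0, and the groups overlapped (difference -0.11 ± 0.24, limma adjusted p = 0.74).

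In all, 4371 of 11164 genes, or 39.2%, differed between day 4 and day 0 in lamin A/C KO muscle, of which 2340 (21.0% of the genes tested) rose and 2031 (18.2%) fell. At least 2-fold differences were found for 1146 of the genes that rose and 831 of those that fell, and at least 4-fold differences for 206 and 148. The median difference over all genes tested was -0.08. The 3 arrays of the days did not overlap for 50.7% of the genes tested, and for 4195 genes, or 37.6%, the difference passed the threshold as well. Of the genes that rose, 192 lay under a signal of 100 on all 3 day 0 arrays, and of those that fell, 173 lay under it on all 3 day 4 arrays. The genes were grouped into 48 lists, of which 1025 members were tested, and 1 gene may stand in several lists.

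**Figure D1:**
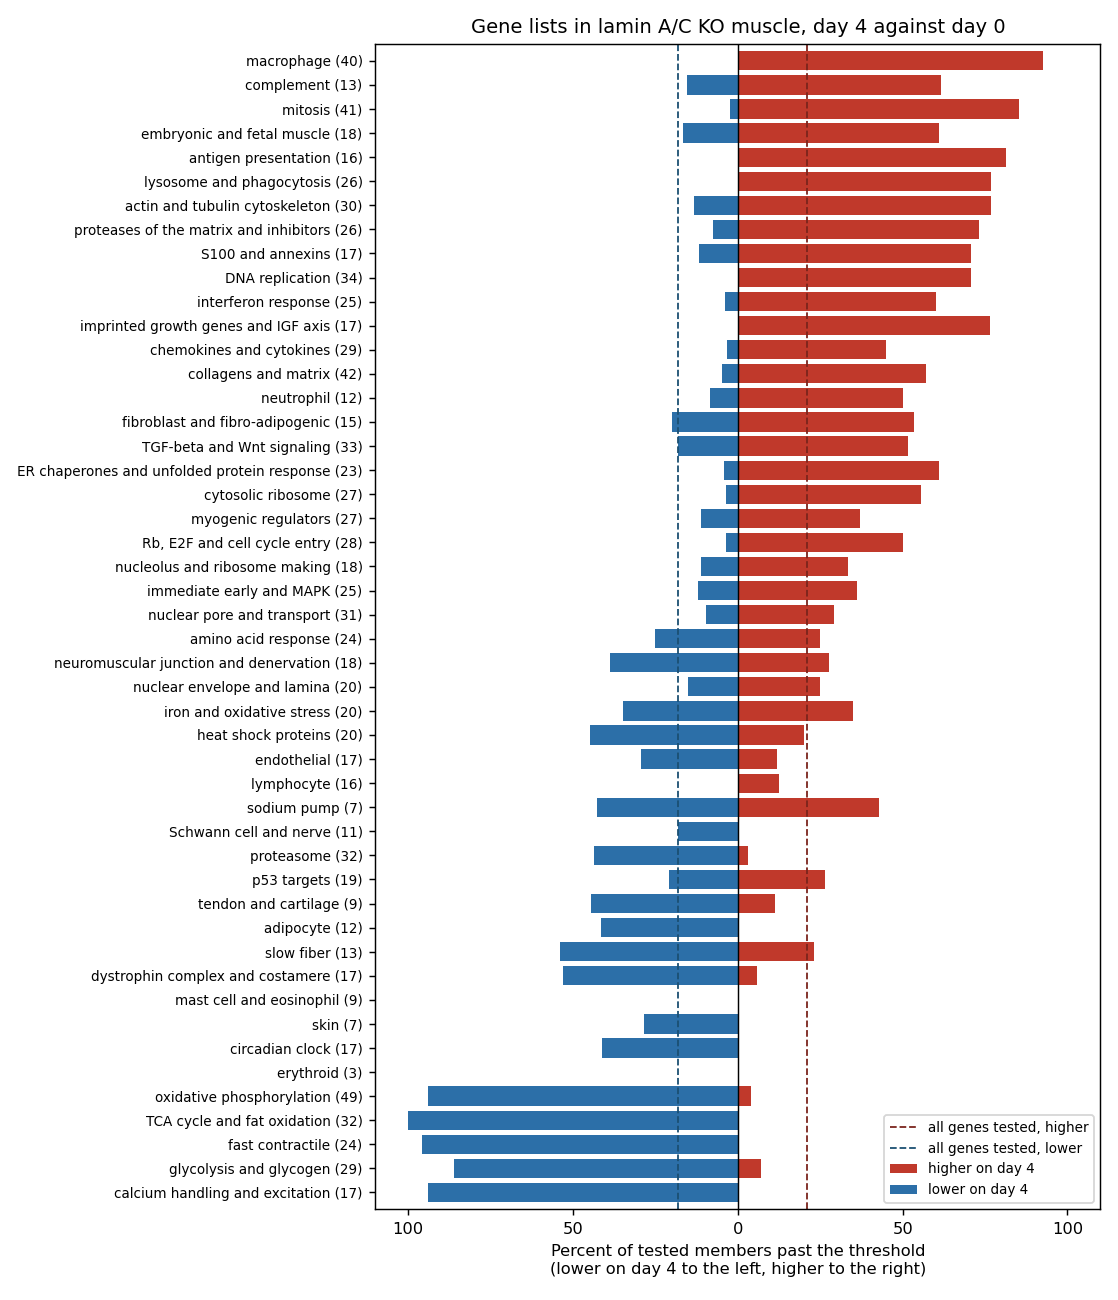
Percent of the tested members of each of 48 gene lists that passed the threshold in lamin A/C KO muscle on day 4 against day 0, higher to the right and lower to the left, with the number tested in brackets and lists ordered by their median log2 difference. Dashed lines mark 21.0% higher and 18.2% lower among all genes tested. Macrophage, mitosis and antigen presentation lists lie far to the right and the energy metabolism and contractile lists far to the left.

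The genes of the mature contractile apparatus were lower on day 4. Of 24 tested members of the fast contractile list, 23 fell and 0 rose, with a median difference of -1.47, against 18.2% of all genes that fell. Myh2, the heavy chain of fast oxidative fibers, gave 737, 1046 and 893 on day 4 and 17044, 16608 and 12863 on day 0 (difference -4.07 ± 0.70, limma adjusted p = 6.7e-05). All 3 day 4 arrays lay far under all 3 day 0 arrays. Mylk2, the kinase of the myosin regulatory light chain, averaged 181 ± 23 on day 4 and 2086 ± 137 on day 0 (SD, n = 3 each). Ldb3 and Tcap, which anchor the sarcomere at the Z-disc, fell by 2.84 and 2.68 on the log2 scale. Myl1, a fast light chain, was the member that did not pass, with 13963, 16233 and 14673 on day 4 and 22525, 24585 and 20744 on day 0. Its groups did not overlap, and the difference was -0.60 ± 0.24 (limma adjusted p = 0.050).

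The slow fiber genes fell more often than they rose. Of 13 tested, 7 (53.8%) fell and 3 (23.1%) rose, against 18.2% and 21.0% of all genes, with a median of -0.47. Those that rose were Tpm3, whose probe sets disagree, Casq2 and Tnni1. The call was lost under 1 of 17 alternatives for Casq2 and under 7 of 17 for Tnni1. Myl3, the slow and ventricular essential light chain, gave 67, 43 and 73 on day 4, all under the minimum, and 11205, 9193 and 9211 on day 0. That is at least 98.3-fold lower on day 4, on a probe set that may share signal with relatives. Myl2, the slow regulatory light chain, gave 164, 140 and 250 on day 4 and 11963, 8160 and 10467 on day 0 (difference -5.58 ± 0.35, limma adjusted p = 7.9e-11). Myh7, the slow heavy chain, gave 117, 110 and 124 on day 4 and 5453, 4497 and 4440 on day 0 (difference -5.01 ± 0.22, limma adjusted p = 7.3e-13). The 3 genes thus stood close to the minimum on day 4 on every array. Myoglobin, Mb, the oxygen store of oxidative fibers, averaged 3193 ± 1001 on day 4 and 16901 ± 960.4 on day 0 (SD, n = 3 each). By contrast Tnnc1, the slow and cardiac troponin C, averaged 6417 ± 542 on day 4 and 8008 ± 385 on day 0 and did not pass (difference -0.32, limma adjusted p = 0.18).

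Tpm3, an alpha-tropomyosin gene with muscle and cytoskeletal transcripts, was read in opposite directions by its probe sets. The brightest gave 4056, 4424 and 4906 on day 4 and 2553, 2570 and 1622 on day 0, a rise of 1.01 ± 0.21 (limma adjusted p = 6.3e-04). A pair of other Tpm3 probe sets gave means of 139 and 125 on day 4 and 4934 and 4340 on day 0, differences of -4.84 and -4.79. Averaged over all its probe sets the gene differed by -0.78, so that no direction holds for the gene as a whole. No source used here says which transcripts each probe set reads.

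Genes of excitation and calcium release fell in 16 of 17 tested members (94.1%, against 18.2% of all genes), with a median of -1.8 and 0 that rose. Pvalb, the calcium buffer of fast fibers, gave 2896, 2551 and 1702 on day 4 and 27689, 27909 and 22135 on day 0 (difference -3.45 ± 0.43, limma adjusted p = 1.1e-06). Clcn1, the chloride channel that steadies the resting fiber, lay under the minimum on all day 4 arrays and was at least 4.02-fold lower than its day 0 mean of 403 ± 42 (SD, n = 3). Trdn, which ties calsequestrin to the release channel, averaged 2086 ± 924 on day 4 and 13170 ± 3177 on day 0 (SD, n = 3 each). Atp2a1, the calcium pump of fast fibers, averaged 11366 ± 2642 on day 4 and 35900 ± 5822 on day 0. Kcnj11, a potassium channel subunit, did not pass (difference -0.56, limma adjusted p = 0.31). In the dystrophin complex and costamere list 9 of 17 members fell (52.9%) and Vcl, vinculin, alone rose (5.88%), against 18.2% and 21.0% of all genes. Sgca, alpha-sarcoglycan, differed by -1.88 ± 0.16.

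**Figure D2:**
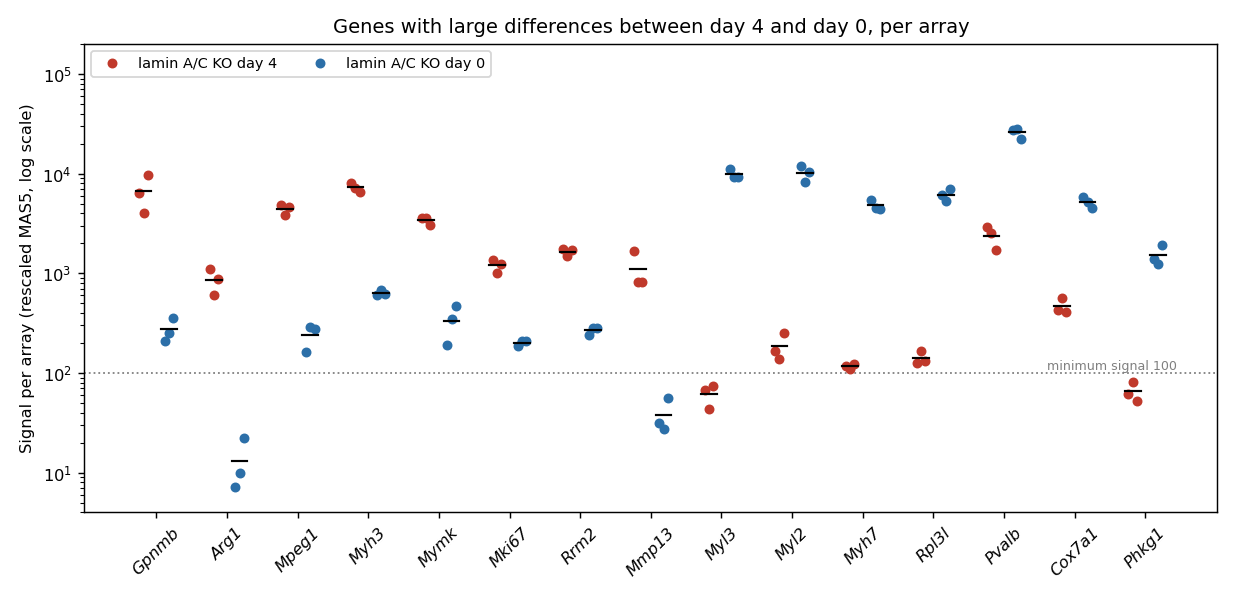
Signal of 15 genes on each lamin A/C KO array (log scale), day 4 in red left of day 0 in blue, with the mean as a bar and the minimum signal of 100 dotted. The 3 arrays of each day stay apart for all 15 genes, and Myl3 and Phkg1 lie under the minimum on day 4, as Arg1 and Mmp13 do on day 0.

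Energy metabolism genes were lower on day 4 almost without exception. All 32 tested members of the TCA cycle and fat oxidation list fell, with a median of -1.27, as did 46 of 49 members of the oxidative phosphorylation list (median -1.21) and 25 of 29 of the glycolysis and glycogen list (median -1.8), against 18.2% of all genes. Pdk4, the kinase that shuts pyruvate dehydrogenase when fat is burned, gave 792, 628 and 868 on day 4 and 7530, 6591 and 6533 on day 0 (difference -3.13 ± 0.30, limma adjusted p = 2.4e-08). Phkg1, the catalytic subunit of muscle phosphorylase kinase, was under the minimum on all day 4 arrays and at least 14.9-fold lower, on a probe set that may share signal with relatives. Slc2a4, the insulin-responsive glucose transporter, averaged 508 ± 73 on day 4 and 3377 ± 507 on day 0 (SD, n = 3 each). Acacb, the muscle acetyl-CoA carboxylase that controls fat entry into mitochondria, fell by 3.39 on the log2 scale.

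Subunit isoforms of the respiratory chain differed in direction. Cox7a1, Cox8b and Cox6a2 are the heart and muscle forms of subunits of cytochrome c oxidase. Cox7a1 gave 432, 564 and 412 on day 4 and 5896, 5170 and 4534 on day 0 (difference -3.39 ± 0.22, limma adjusted p = 1.3e-10). Cox8b fell by 3.00 and Cox6a2 fell by 2.71. The 2 members that rose, Cox6a1 and Cox8a, are the forms found in most tissues. Cox6a1 gave 8287, 7649 and 8721 on day 4 and 4093, 3832 and 3607 on day 0 (difference 1.09 ± 0.14, limma adjusted p = 1.9e-06), and Cox8a rose by 1.07 ± 0.14. A like pair stood in the glycolysis list, where Pgam1, the widely expressed phosphoglycerate mutase, rose by 1.90 ± 0.16 and Hk1, the hexokinase of most tissues, by 0.77 ± 0.17. Rpl3l, a form of ribosomal protein L3 made in heart and skeletal muscle, gave 127, 165 and 130 on day 4 and 6117, 5362 and 6970 on day 0 (difference -5.16 ± 0.28, limma adjusted p = 1.4e-11). It was the only fall among 27 tested cytosolic ribosome genes, of which 15 rose (55.6%, against 21.0% of all genes). Tuba8, an alpha-tubulin of muscle, averaged 169 ± 43 on day 4 and 3317 ± 887 on day 0 (SD, n = 3 each), while 23 of 30 cytoskeleton genes (76.7%) rose.

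Genes of new fiber formation were higher on day 4. Of 18 tested members of the embryonic and fetal muscle list 11 rose and 3 fell, with a median of 1.5, against 21.0% of all genes that rose. Myh3, the embryonic heavy chain, gave 8096, 7230 and 6559 on day 4 and 605, 684 and 617 on day 0 (difference 3.45 ± 0.26, limma adjusted p = 1.4e-09). Mymk, the myomaker protein that myoblasts need to fuse, gave 3563, 3631 and 3025 on day 4 and 193, 345 and 465 on day 0 (difference 3.30 ± 0.20, limma adjusted p = 4.5e-11). Day 4 arrays were about an order of magnitude above day 0 arrays in both genes. Tnnt2, the cardiac and embryonic troponin T, averaged 5704 ± 739 on day 4 and 544 ± 36 on day 0 (SD, n = 3 each), on a probe set that may share signal with relatives. Xirp1 and Csrp3, which bind the ends and Z-discs of fibers under strain, fell by 1.67 and 1.56. Sln, sarcolipin, an inhibitor of the calcium pump, did not pass, with 3994, 4919 and 5281 on day 4 and 7405, 4961 and 7110 on day 0.

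Among the myogenic regulators 10 of 27 tested rose and 3 fell, or 37% and 11.1%, against 21.0% and 18.2% of all genes, with a median of 0.38. Myog, the factor that starts terminal differentiation, gave 4233, 2672 and 3719 on day 4 and 818, 953 and 873 on day 0 (difference 1.95 ± 0.16, limma adjusted p = 5.4e-09). Id2 and Msc, which restrain myogenic factors, rose by 1.83 and 1.2. Myf6, the regulatory factor of mature fibers, averaged 1012 ± 205 on day 4 and 2345 ± 440 on day 0 (SD, n = 3 each), and Mef2c, a partner of the myogenic factors, fell by 0.85 ± 0.14. In the list of imprinted growth genes and the IGF axis 13 of 17 (76.5%) rose and 0 fell, with a median of 0.81. Mest, an imprinted gene, gave 6157, 6667 and 6358 on day 4 and 1088, 1030 and 921 on day 0 (difference 2.62 ± 0.20, limma adjusted p = 1.4e-09), and Plagl1 and Cdkn1c, an imprinted transcription factor and an imprinted inhibitor of cyclin-dependent kinases, rose by 1.77 and 1.53.

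At the neuromuscular junction the receptor subunits moved apart. Chrng, the fetal gamma subunit of the acetylcholine receptor, gave 2130, 1462 and 1416 on day 4 and 82, 101 and 180 on day 0 (difference 3.50 ± 0.27, limma adjusted p = 1.4e-09), although a dim probe set of the gene differed by -0.56. Chrne, the adult epsilon subunit that replaces it, lay under the minimum on every day 4 array and gave 195, 211 and 228 on day 0, at least 2.11-fold lower on day 4. Chrna1, the alpha subunit present in both receptors, averaged 5316 ± 632 on day 4 and 1260 ± 201 on day 0 (SD, n = 3 each). Runx1, a factor induced in muscle that has lost its nerve, gave 1536, 1266 and 1378 on day 4 and 71, 117 and 111 on day 0 (difference 3.45 ± 0.28). Fbxo32, the atrophy ubiquitin ligase atrogin-1, fell by 2.17 ± 0.36. The list as a whole held 5 that rose and 7 that fell of 18, or 27.8% and 38.9%, against 21.0% and 18.2% of all genes.

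The promoters of both receptor subunits that rose are shown because each holds the E-box CAGCTG, a recognition sequence of the myogenic factors. They run from 250 bases before to 50 bases after the start of transcription in RefSeq (build GRCm38.p6), printed on the strand of the gene with the E-boxes in capitals.
Chrng, chr1:87205561-87205860, plus strand: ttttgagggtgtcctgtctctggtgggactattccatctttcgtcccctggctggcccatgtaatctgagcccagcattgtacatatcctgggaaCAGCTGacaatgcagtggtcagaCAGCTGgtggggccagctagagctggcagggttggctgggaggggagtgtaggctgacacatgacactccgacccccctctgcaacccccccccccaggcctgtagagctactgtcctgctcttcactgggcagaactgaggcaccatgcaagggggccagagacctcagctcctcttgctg
Chrna1, chr2:73580289-73580588, minus strand: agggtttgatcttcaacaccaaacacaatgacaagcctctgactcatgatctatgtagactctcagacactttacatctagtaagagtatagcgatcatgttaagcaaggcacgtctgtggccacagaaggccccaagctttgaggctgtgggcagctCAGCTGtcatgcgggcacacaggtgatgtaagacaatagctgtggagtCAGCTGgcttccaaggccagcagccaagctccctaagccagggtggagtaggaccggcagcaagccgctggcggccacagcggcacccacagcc
Each promoter held 2 copies. The E-box, which reads the same on both strands, was present in 15.3% of the 8936 tested genes with a promoter sequence, in 23.1% of 13 such embryonic and fetal muscle genes and in 37.5% of 16 such fast contractile genes, and outside muscle lists in 29% of 31 macrophage, 11.5% of 26 matrix and 10.8% of 37 oxidative phosphorylation genes. A match is a description of the letters and not of binding.

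Cell division genes were higher on day 4. In the mitosis list 35 of 41 tested members rose and 1 fell, with a median of 1.51, and in the DNA replication list 24 of 34 rose and 0 fell, with a median of 0.99, against 21.0% of all genes that rose. Mki67, a marker of dividing cells, gave 1373, 1001 and 1229 on day 4 and 187, 207 and 208 on day 0 (difference 2.39 ± 0.21, limma adjusted p = 8.4e-09). Cdk1, the kinase that starts mitosis, gave 923, 1047 and 1109 on day 4 and 257, 60 and 284 on day 0 (difference 2.38 ± 0.33, limma adjusted p = 4.3e-06). Neither gene overlapped between the days. Rrm2, the subunit of ribonucleotide reductase made for DNA synthesis, averaged 1650 ± 153 on day 4 and 268 ± 26 on day 0 (SD, n = 3 each), and Tk1, thymidine kinase, rose by 2.27 ± 0.27. Bub1b and Kif23, of the spindle checkpoint and the dividing midbody, lay under the minimum on all day 0 arrays and were at least 3.30-fold and at least 3.53-fold higher on day 4. Pttg1, securin, the member that fell, gave 2997, 3651 and 3067 on day 4 and 7584, 7905 and 7052 on day 0, on a probe set that may share signal with relatives.

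Cell cycle entry genes moved less evenly, with 14 of 28 tested members (50%) higher, 1 (3.57%) lower and a median of 0.31. E2f8, an E2F repressor of late S phase, rose by 2.57 ± 0.41, and Cdk4, a kinase that phosphorylates Rb, by 1.67 ± 0.13. Cdkn1a, the p21 inhibitor that is raised both by p53 and during myoblast differentiation, gave 5875, 5092 and 5365 on day 4 and 1573, 2126 and 1077 on day 0 (difference 1.8 ± 0.23, limma adjusted p = 1.4e-06). E2f6, a repressive E2F, fell by 1.81 ± 0.19. Of 19 p53 targets 26.3% rose and 21.1% fell, close to the 21.0% and 18.2% of all genes.

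Mki67, Cdk1, Bub1b and Kif23 are shown with their promoters, because they share short elements known from G2 and M phase genes. Capitals mark the CCAAT box (CCAAT, or ATTGG on the other strand) and the cell cycle homology region, or CHR (TTTGAA, or TTCAAA on the other strand), and no CCAAT box overlapped a CHR in these 4 promoters. The sequences are from RefSeq (build GRCm38.p6), on the strand of the gene.
Mki67, chr7:135716330-135716629, minus strand: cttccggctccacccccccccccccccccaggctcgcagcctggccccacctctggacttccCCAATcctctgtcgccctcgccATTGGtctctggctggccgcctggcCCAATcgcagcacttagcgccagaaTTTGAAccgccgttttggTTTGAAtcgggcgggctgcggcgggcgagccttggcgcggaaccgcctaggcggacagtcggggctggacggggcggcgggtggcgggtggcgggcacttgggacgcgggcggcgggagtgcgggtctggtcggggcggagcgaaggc
Cdk1, chr10:69352863-69353162, minus strand: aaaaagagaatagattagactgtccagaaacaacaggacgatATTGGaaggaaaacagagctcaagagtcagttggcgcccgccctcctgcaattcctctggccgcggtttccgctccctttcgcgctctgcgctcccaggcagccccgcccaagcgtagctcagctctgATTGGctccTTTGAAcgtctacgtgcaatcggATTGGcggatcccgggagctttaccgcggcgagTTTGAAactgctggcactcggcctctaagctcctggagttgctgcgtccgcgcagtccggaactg
Bub1b, chr2:118597961-118598260, plus strand: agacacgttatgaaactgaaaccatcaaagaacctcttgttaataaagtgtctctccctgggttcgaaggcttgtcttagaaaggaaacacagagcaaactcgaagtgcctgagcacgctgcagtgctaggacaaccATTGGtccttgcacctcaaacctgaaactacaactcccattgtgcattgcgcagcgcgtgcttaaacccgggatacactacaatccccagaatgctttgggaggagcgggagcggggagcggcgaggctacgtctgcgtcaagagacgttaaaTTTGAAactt
Kif23, chr9:61946750-61947049, minus strand: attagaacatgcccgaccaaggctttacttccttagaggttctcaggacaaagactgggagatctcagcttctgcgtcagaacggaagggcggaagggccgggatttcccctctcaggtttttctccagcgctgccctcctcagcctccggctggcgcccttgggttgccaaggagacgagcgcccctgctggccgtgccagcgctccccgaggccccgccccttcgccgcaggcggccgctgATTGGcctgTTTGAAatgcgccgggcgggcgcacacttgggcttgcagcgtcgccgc
The promoters of Mki67 and Cdk1 each held 3 CCAAT boxes and 2 CHR elements, and those of Bub1b and Kif23 each held 1 of both. Of 35 mitosis genes with a promoter sequence 71.4% held a CHR and 74.3% a CCAAT box. Of 28 DNA replication genes with one, 10.7% held a CHR and 64.3% a CCAAT box. Over all 8936 tested genes with one, the shares were 12.6% and 37.8%.

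Macrophage genes were higher on day 4. Of 40 tested members 37 rose and 0 fell, with a median of 2.55, against 21.0% of all genes that rose. The day 4 arrays summed to 115649 to 146106 over the list, against 18418 to 22259 for the day 0 arrays. Gpnmb, a glycoprotein of phagocytic macrophages, gave 6406, 4059 and 9788 on day 4 and 211, 254 and 354 on day 0 (difference 4.41 ± 0.27, limma adjusted p = 7.4e-11). Arg1, the arginase of repair macrophages, gave 1106, 611 and 874 on day 4 and 7, 10 and 22 on day 0, at least 8.39-fold higher on day 4. Mpeg1, a pore-forming protein of macrophages, gave 4861, 3820 and 4650 on day 4 and 161, 288 and 279 on day 0 (difference 4.05 ± 0.35, limma adjusted p = 7.9e-09). All day 4 arrays lay above all day 0 arrays in each of the 3 genes, and Arg1 was under the minimum on every day 0 array. Fcer1g, an adaptor of Fc receptors, and Ms4a7, a macrophage membrane protein, averaged 4038 ± 653 and 3412 ± 402 on day 4 and 287 ± 139 and 275 ± 40 on day 0 (SD, n = 3 each). Cd5l, a lipid-handling protein of resident macrophages, gave 105, 124 and 119 on day 4 and 125, 124 and 85 on day 0, and did not pass (difference 0.05, limma adjusted p = 0.86).

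Lysosome, antigen presentation and complement genes were also higher on day 4, and which cells made their RNA was not tested. In the lysosome and phagocytosis list 20 of 26 (76.9%, against 21.0% of all genes) rose and 0 fell, with a median of 1.2. Ctss, cathepsin S, led the list at a difference of 2.84 ± 0.19. In the antigen presentation list 13 of 16 (81.2%) rose and 0 fell (median 1.23), where H2-Aa and Cd74, a class II chain and the class II chaperone, both rose by 1.60. In the complement list 8 of 13 (61.5%) rose and 2 (15.4%, against 18.2% of all genes) fell, with a median of 1.88. C1qb, a chain of the recognition protein C1q, gave 5560, 7011 and 7048 on day 4 and 848, 990 and 1030 on day 0 (difference 2.73 ± 0.14, limma adjusted p = 6.9e-12), and C3ar1, the C3a receptor, rose by 2.78 ± 0.17. Hmox1, which breaks down heme, averaged 1286 ± 256 on day 4 and 194 ± 35 on day 0 (SD, n = 3 each).

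Other blood cell markers moved less. The neutrophil list held 6 of 12 tested that rose and 1 that fell, or 50% and 8.33%, against 21.0% and 18.2% of all genes. Its summed signals were 3455 to 4746 on day 4 and 1539 to 2036 on day 0. S100a8 and S100a9, the calprotectin subunits of neutrophils and monocytes, averaged 492 ± 109 and 284 ± 40 on day 4 and 75 ± 32 and 36 ± 17 on day 0 (SD, n = 3 each). Chil3 and Mmp9 also rose, whereas Ltf was the member that fell, and Ngp and Elane did not pass. The lymphocyte list held 2 of 16 that rose and 0 that fell, a share under the 21.0% of all genes, and its summed signals overlapped, at 3428 to 3778 on day 4 and 2427 to 4006 on day 0. In the mast cell and eosinophil list 0 of 9 and in the erythroid list 0 of 3 passed. The chemokine and cytokine list held 13 of 29 that rose and 1 that fell, or 44.8% and 3.45%. Ccl2, which draws monocytes, gave 389, 836 and 1047 on day 4 and 113, 117 and 94 on day 0 (difference 2.40 ± 0.37, limma adjusted p = 1.9e-05), and Tgfb1, the transforming growth factor, gave 2011, 1840 and 1895 on day 4 and 356, 449 and 313 on day 0 (difference 2.28 ± 0.20). Ccl11, eotaxin, fell by 1.18 ± 0.30.

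Interferon response genes rose in 15 of 25 tested members (60%) and fell in 1 (4%), against 21.0% and 18.2% of all genes, with a median of 0.98. Oas1a, which makes the activator of RNase L, gave 831, 1167 and 977 on day 4 and 305, 162 and 45 on day 0 (difference 2.56 ± 0.32, limma adjusted p = 1.2e-06), and Ifit2, which binds foreign RNA, gave 237, 618 and 340 on day 4 and 125, 35 and 95 on day 0. Replicate 2 of day 4 was the highest day 4 array for both genes, and the list summed to between 16958 and 26578 on day 4 and between 10137 and 12336 on day 0.

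Matrix genes rose in part. In the collagens and matrix list 24 of 42 tested (57.1%) rose and 2 (4.76%) fell, against 21.0% and 18.2% of all genes, with a median of 0.77. Tnc, tenascin C, an adhesion-modulating protein of the regeneration matrix, gave 5864, 8048 and 6824 on day 4 and 1552, 1737 and 1217 on day 0 (difference 2.18 ± 0.21, limma adjusted p = 2.7e-08). Postn, periostin, averaged 14613 ± 860 on day 4 and 3946 ± 706 on day 0 (SD, n = 3 each), and Plod2, which prepares collagen for crosslinking, rose by 2.05 ± 0.17. Fmod, fibromodulin, a proteoglycan of tendon and mature matrix, fell by 1.21 ± 0.34, and Dcn, decorin, did not pass (difference -0.58, limma adjusted p = 0.23). Day 0 replicate 3 was low for several of these genes, with 7825 for Dcn where the other day 0 arrays gave 17376 and 14967.

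Among matrix proteases and inhibitors 19 of 26 rose and 2 fell, or 73.1% and 7.69%, against 21.0% and 18.2% of all genes. Mmp13, a collagenase, gave 1671, 823 and 816 on day 4 and 32, 27 and 56 on day 0, at least 10.4-fold higher on day 4. Adam12, a protease of regenerating muscle, rose by 2.33 ± 0.21, while the inhibitors Timp4 and Timp3 fell by 1.62 and 1.31. In the TGF-beta and Wnt list 17 of 33 rose (51.5%) and 6 fell, a share of 18.2% that equals that of all genes. Sfrp2, a secreted Wnt modulator, gave 3376, 2760 and 3609 on day 4 and 328, 452 and 483 on day 0 (difference 2.86 ± 0.20, limma adjusted p = 2.9e-10). Ltbp2 and Ccn4, a matrix protein related to the latent TGF-beta binding proteins and a Wnt-induced matricellular protein, were higher by 2.63 and 2.33. Wif1, a Wnt inhibitor, lay under the minimum on all day 4 arrays and was at least 3.31-fold lower. Markers of fibroblasts were raised in 8 of 15 (53.3%) and lowered in 3 (20%), with Twist1, a mesenchymal factor, at least 1.87-fold higher. The 3 that fell were Pi16, Cd34 and Meox1, of which Meox1 lost the call under 8 of 17 alternatives. Osr1 and Dpt did not pass, so that the list did not move in 1 direction.

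Markers of other cell types that the sample could hold were counted in the same way. The endothelial list held 2 of 17 that rose and 5 that fell, or 11.8% and 29.4%, against 21.0% and 18.2% of all genes. Its summed signals overlapped, at 11269 to 12892 on day 4 and 11227 to 13245 on day 0. In the adipocyte list 5 of 12 (41.7%) fell and 0 rose. Its summed signal ran between 21059 and 23267 on day 4 and between 44904 and 49982 on day 0. Car3 and Lpl, both made by muscle fibers as well, gave the largest part of that signal. In the tendon and cartilage list 4 of 9 (44.4%) fell and 1 (11.1%) rose. Chad, chondroadherin, gave 35, 24 and 29 on day 4 and 1258, 1700 and 523 on day 0, at least 10.4-fold lower on day 4. In the Schwann cell and nerve list 2 of 11 fell, a share of 18.2% that equals the 18.2% of all genes, and in the skin list 2 of 7 (28.6%). The part of these cell types in the results above was not tested.

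The nuclear envelope list stayed near the background. Of 20 tested members 5 rose and 3 fell, or 25% and 15%, against 21.0% and 18.2% of all genes. Among the 5 was Man1a, a Golgi mannosidase and not a protein of the nuclear envelope, which lost its call under 6 of 17 alternatives. Lmnb2, a B-type lamin, lay under the minimum on all day 0 arrays and was at least 2.22-fold higher on day 4, and Lmnb1, the other B-type lamin, gave 1086, 1113 and 930 on day 4 and 474, 658 and 512 on day 0 (difference 0.90 ± 0.15, limma adjusted p = 6.3e-05). Sun2, which links the lamina to the cytoskeleton, averaged 1968 ± 165 on day 4 and 3237 ± 261 on day 0 (SD, n = 3 each). Of 31 nuclear pore and transport genes 9 rose and 3 fell, or 29% and 9.68%, against 21.0% and 18.2% of all genes. Nup107, a scaffold nucleoporin, was at least 4.31-fold higher on a probe set that may share signal with relatives, and Kpna3 and Kpna4, importin alpha subunits, fell by 1.07 and 0.94.

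The lists of protein making and handling differed in direction. In the ER chaperone and unfolded protein list 14 of 23 (60.9%) rose and 1 (4.35%) fell, with a median of 0.55. Edem1, which hands misfolded glycoproteins to degradation, differed by 2.51 ± 0.19. In the proteasome list 14 of 32 (43.8%) fell and 1 (3.12%) rose, with a median of -0.31 and Psmd2, a base subunit, at -1.38 ± 0.22. The heat shock list held 9 of 20 that fell and 4 that rose, or 45% and 20%, against 18.2% and 21.0% of all genes. Cryab, alpha B-crystallin, the small chaperone of the sarcomere, gave 3533, 3551 and 3479 on day 4 and 12970, 13987 and 13190 on day 0 (difference -1.92 ± 0.13, limma adjusted p = 2.6e-10). Hspa1a, inducible Hsp70, averaged 170 ± 19 on day 4 and 781 ± 124 on day 0, whereas Dnaja1, its cochaperone, and Hsp90aa1, inducible Hsp90, rose by 1.01 and 0.74. In the amino acid response list, where 25% of 24 rose and 25% fell, near the 21.0% and 18.2% of all genes, Asns, asparagine synthetase, rose by 1.70 ± 0.14, while Vldlr, a lipoprotein receptor, fell by 3.22 ± 0.33.

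In the circadian list 7 of 17 tested fell, 0 rose and 10 did not pass, with a median of -0.62, against 18.2% of all genes that fell. Rora and Nr1d1, the activating and repressing nuclear receptors of the clock, fell by 2.05 and 1.81, and Dbp, a clock output factor, gave 380, 399 and 327 on day 4 and 1268, 790 and 1231 on day 0 (difference -1.47 ± 0.20, limma adjusted p = 4.0e-06). The time of day at which muscle was taken is not given in the labels. In the immediate early and MAPK list 9 of 25 rose and 3 fell, or 36% and 12%, against 21.0% and 18.2% of all genes. Myc, a growth factor response gene, was higher by 1.34 ± 0.23 and Nr4a1, an orphan receptor of contracting muscle, lower by 1.91 ± 0.25. In the S100 and annexin list 12 of 17 (70.6%) rose and 2 (11.8%) fell. Among those that rose was Anxa1, a regulator of inflammation, with 5272, 5612 and 8127 on day 4 and 1627, 1513 and 1314 on day 0.

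Between day 3 and day 4 lamin A/C KO muscle differed in few genes, where day 3 against day 0 had given 23.4% of the genes tested as higher and 19.6% as lower. Of the 11164 genes 228, or 2.04%, differed, with 144 (1.29%) higher and 84 (0.752%) lower on day 4, and 1665 genes had an unadjusted p under 0.05. Gapdh 3'/5' ratios lay at 0.822 to 0.888 for day 4 arrays and at 1.21 to 1.64 for day 3 arrays, and with this ratio as a covariate the count was 53. Leaving out day 3 replicate 3 gave 56 genes and leaving out day 4 replicate 2 gave 69. Of the 228 genes 73 had risen from day 3 while still under their day 0 level past the threshold.

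Part of the contractile and glycolytic genes were higher on day 4 than on day 3. In the fast contractile list 9 of 24 and in the glycolysis list 7 of 29 were higher on day 4 than on day 3, against 1.29% of all genes. Tmod4, the tropomodulin that caps thin filaments of fast fibers, gave 1440, 1710 and 1355 on day 4 and 321, 368 and 416 on day 3 (difference 1.94 ± 0.25, limma adjusted p = 2.4e-04), and 7003, 5600 and 6912 on day 0. Apobec2, a muscle deaminase, gave 2194, 1835 and 2045 on day 4, 555, 681 and 586 on day 3 and 8544, 7710 and 8760 on day 0 (day 4 minus day 3 1.69 ± 0.22, limma adjusted p = 2.8e-04). Fabp3, the fatty acid binding protein of muscle, and Myoz1, a Z-disc protein of fast fibers, rose by 1.62 and 1.58 between day 3 and day 4. Each lay between its day 3 and its day 0 level on day 4.

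Atp1b4 and Atp1b2, both of the sodium pump beta subunit family, showed the largest rises between day 3 and day 4 among the genes that passed. Atp1b4, which in mammals sits at the nuclear envelope of muscle and not in the pump, gave 325, 328 and 377 on day 0, 79, 104 and 79 on day 3 and 1027, 873 and 771 on day 4 (day 4 minus day 3 2.95 ± 0.28, limma adjusted p = 1.0e-05). It thus passed above its day 0 level, with a day 4 minus day 0 difference of 1.29 ± 0.28. Atp1b2, a pump beta subunit, gave 3307, 3089 and 2390 on day 0, 112, 221 and 196 on day 3 and 891, 1132 and 480 on day 4, and stayed under its day 0 level. Aspn, asporin, a small proteoglycan, gave 746, 583 and 711 on day 0, 798, 677 and 415 on day 3 and 2351, 2543 and 2590 on day 4 (day 4 minus day 3 1.98 ± 0.20, limma adjusted p = 1.5e-05). Day 4 arrays thus lay above all day 3 and day 0 arrays, which overlapped each other.

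Some genes were lower on day 4 than on day 3. Arg1 gave 1106, 611 and 874 on day 4 and 1630, 3778 and 4722 on day 3 (difference -1.83 ± 0.35, limma adjusted p = 7.7e-03), and Chil3, a chitinase-like protein of alternatively activated macrophages and neutrophils, gave 338, 231 and 375 on day 4 and 627, 779 and 1700 on day 3 (difference -1.51 ± 0.31). Neither call held without day 4 replicate 2 (differences -1.62 and -1.33) or without day 3 replicate 3 (differences -1.53 and -1.10). With the Gapdh ratio as a covariate Arg1 differed by -1.39 and did not pass (limma adjusted p = 0.088), and with a pseudocount of 1 Chil3 did not pass (limma adjusted p = 0.074). In the DNA replication list 4 of 34 and in the mitosis list 2 of 41 were lower on day 4, against 0.752% of all genes.

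**Figure D3:**
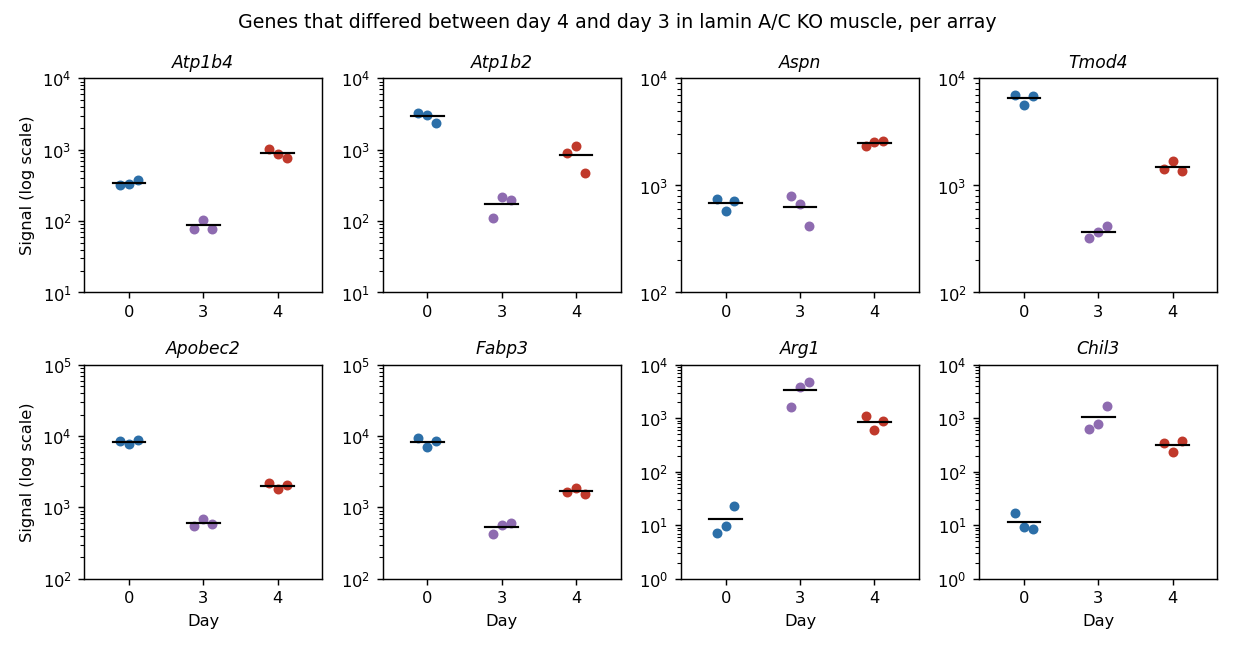
Signal of 8 genes on each lamin A/C KO array on days 0, 3 and 4 (log scale), with the mean as a bar. Atp1b2, Tmod4, Apobec2 and Fabp3 are lowest on day 3 and partly back on day 4, Atp1b4 is lowest on day 3 and highest on day 4, Aspn is highest on day 4, and Arg1 and Chil3 are highest on day 3.

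In control muscle 3770 genes, or 33.8%, differed between day 4 and day 0, with 2178 (19.5%) higher and 1592 (14.3%) lower. The 1761 genes that rose in both were 75.3% of those that rose in lamin A/C KO muscle and 80.9% of those that rose in control muscle. The 1289 genes that fell in both were 63.5% and 81.0%, and 8 genes passed in opposite directions. Over all genes tested the changes in lamin A/C KO and in control muscle had a Pearson correlation of 0.859, a description across genes, which are not independent replicates. The difference between the changes was then tested as an interaction. It passed for 23 genes, or 0.206% of the genes tested, with 2 (0.0179%) more positive and 21 (0.188%) more negative in lamin A/C KO muscle, and for 866 at an unadjusted p under 0.05. The control groups hold 2 arrays each, and leaving out control day 4 replicate 1 left 8 genes and leaving out control day 4 replicate 2 left 12.

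Most of the 21 genes were higher in lamin A/C KO than in control muscle on day 0 and did not differ past the threshold on day 4. On day 0, 16 of the 21 were higher in lamin A/C KO than in control muscle past the threshold, against 0.752% of all genes, and on day 4 0 of the 21 were. The day 0 arrays enter both contrasts, so that these counts describe the 21 genes and are not independent of the interaction. Sln, sarcolipin, which inhibits the calcium pump, gave 3994, 4919 and 5281 on day 4 and 7405, 4961 and 7110 on day 0 in lamin A/C KO muscle, and 5912 and 5974 on day 4 and 711 and 667 on day 0 in control muscle. Its change was -0.44 in lamin A/C KO and 3.05 in control muscle, and the difference of -3.49 ± 0.30 (limma adjusted p = 1.7e-06) was the largest of the 23. Ankrd1, a stretch-responsive ankyrin repeat protein, gave 1588, 1794 and 1222 on day 4 and 1892, 1486 and 1354 on day 0 in lamin A/C KO muscle, and 2020 and 1327 on day 4 and 338 and 240 on day 0 in control muscle (difference of the changes -2.44 ± 0.36, limma adjusted p = 2.5e-03). In both genes the day 0 lamin A/C KO arrays stood at the level of the day 4 arrays of either genotype.

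The embryonic and fetal muscle list held 5 of the 21 genes, among 18 tested members, against 0.188% of all genes that were more negative. Besides Sln and Ankrd1 these were Myh8, Myl4 and Tnnt2. Tnnt2 lost the call under 17 of 20 alternatives and Myl4 under 6 of 20. Myh8, the perinatal heavy chain, gave 2710, 2909 and 2184 on day 4 and 534, 636 and 774 on day 0 in lamin A/C KO muscle, and 3892 and 5111 on day 4 and 210 and 195 on day 0 in control muscle (difference of the changes -2.30 ± 0.28, limma adjusted p = 3.3e-04). It rose in both genotypes, by 1.96 in lamin A/C KO and by 4.26 in control muscle. Flnc, filamin C, and Hspa1b, inducible Hsp70, fell in lamin A/C KO muscle. Flnc averaged 1451 ± 154 on day 4 and 2841 ± 224 on day 0 in lamin A/C KO muscle (SD, n = 3 each), against control arrays of 1948 and 2063 on day 4 and 1286 and 936 on day 0, and was among the 8 genes with opposite calls (difference of the changes -1.81 ± 0.28, limma adjusted p = 4.1e-03). Hspa1b gave 466, 431 and 561 on day 4 and 1993, 1726 and 1822 on day 0 in lamin A/C KO muscle, and 574 and 609 on day 4 and 536 and 408 on day 0 in control muscle, where its change of 0.32 did not pass (difference of the changes -2.18 ± 0.32, limma adjusted p = 2.5e-03), on a probe set that may share signal with relatives. Sh3bp4, an endocytic adaptor, differed by -2.01 ± 0.32. These 6 genes, Sln, Ankrd1, Myh8, Flnc, Hspa1b and Sh3bp4, passed under all alternatives read gene by gene, 20 for each and 19 for Sh3bp4. The other 17 lost the call under at least 1 of them. The fit of only the compared groups was not read gene by gene. It gave 26 genes, which held 17 of the 23.

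A few of the 21 differed on day 4. Myl3 gave 67, 43 and 73 in lamin A/C KO muscle and 660 and 399 in control muscle on day 4, and Myh7 gave 117, 110 and 124 in lamin A/C KO muscle and 1067 and 617 in control muscle. The day 4 difference between lamin A/C KO and control muscle was -2.56 for Myl3 (limma adjusted p = 4.4e-05) and -2.50 for Myh7 (limma adjusted p = 8.2e-06), and with Lmna these were the 3 of the 21 that passed there, against 0.0448% of all genes lower. The differences of the changes were -1.96 ± 0.40 and -1.86 ± 0.35, and without control day 4 replicate 1 they were -1.62 and -1.48. They did not pass under median scaling (-1.84 and -1.74). Of 20 alternatives read gene by gene, 17 ended the call of Myl3 and 9 that of Myh7. Lmna itself differed by -2.11 ± 0.28 on its brightest probe set, where control muscle rose by 2.03 and the lamin A/C KO arrays stayed near the minimum, but with the mean of all Lmna probe sets the difference was -0.52 and did not pass (limma adjusted p = 0.64).

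**Figure D4:**
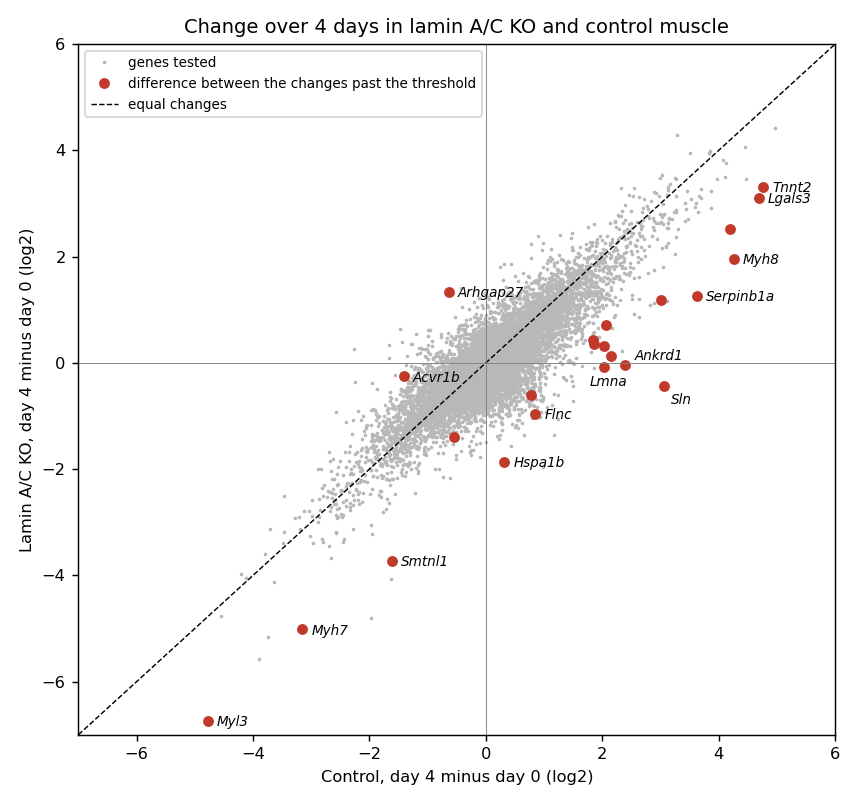
Change of each gene from day 0 to day 4 (log2) in control muscle on the horizontal axis and in lamin A/C KO muscle on the vertical axis, one grey point per gene, with the 23 genes whose changes differed past the threshold in red and equal changes on the dashed line. Of the 23, 21 lie under the line and 2, Arhgap27 and Acvr1b, above it.

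**Figure D5:**
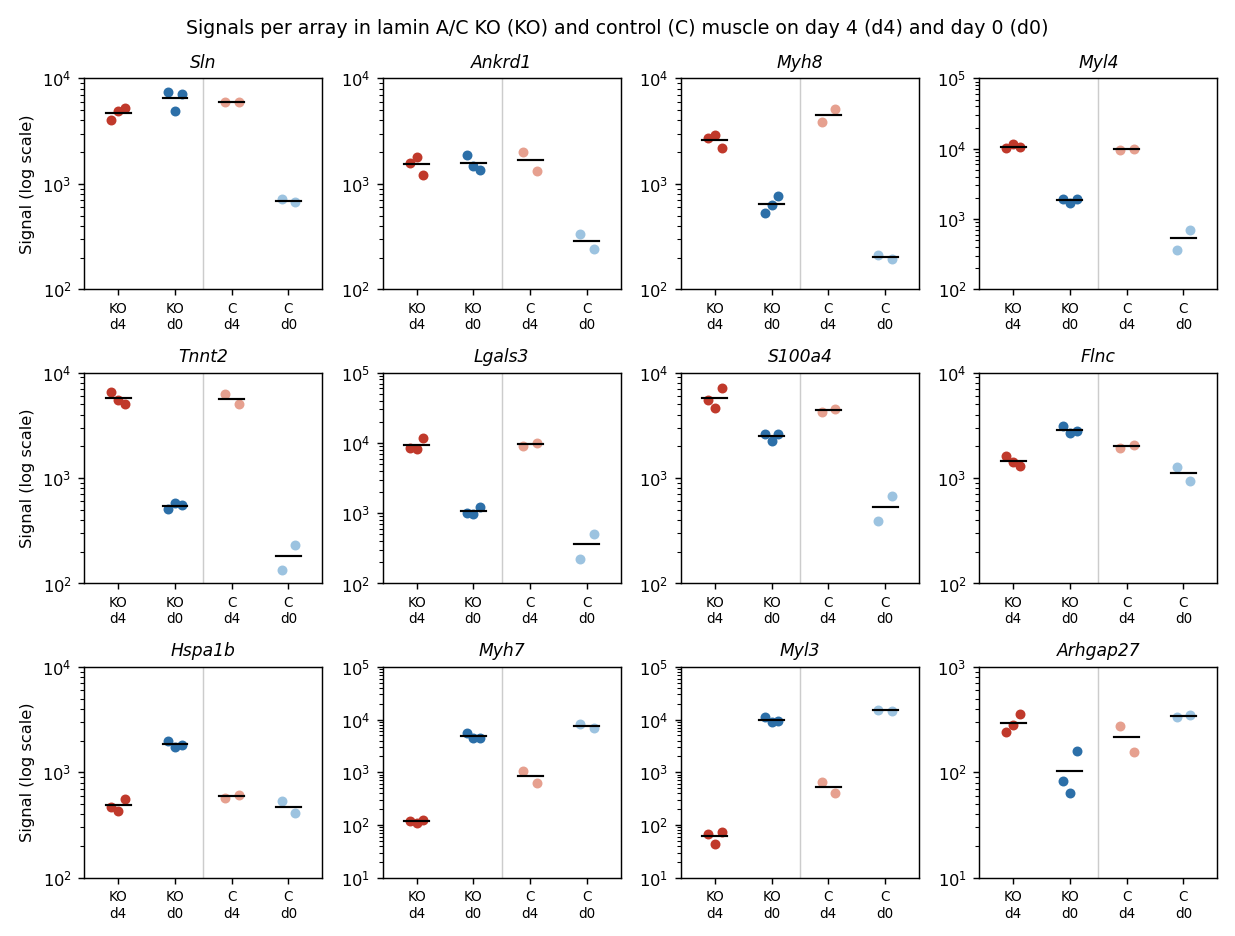
Signal of 12 of the 23 genes on each array (log scale), from left lamin A/C KO day 4 and day 0 and control day 4 and day 0, with the mean as a bar. In Sln, Ankrd1, Myh8, Myl4, Tnnt2, Lgals3, S100a4, Flnc and Hspa1b the day 0 lamin A/C KO arrays lie above the day 0 control arrays, while Myh7 and Myl3 are lower in lamin A/C KO muscle on day 4.

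In emerin KO muscle 44.2% of the genes differed between day 4 and day 0. The change in lamin A/C KO muscle differed from that in emerin KO muscle for 699 genes, or 6.26%, with 306 (2.74%) more positive and 393 (3.52%) more negative in lamin A/C KO muscle. The emerin KO arrays had Gapdh 3'/5' ratios of 1.40 to 5.30 on day 4 and 0.914 to 1.34 on day 0, and with this ratio as a covariate 106 genes passed. Leaving out emerin KO day 0 replicate 2 left 263 genes, and leaving out emerin KO day 4 replicate 2 gave 1129. In the embryonic and fetal muscle list 12 of 18 tested members changed more negatively in lamin A/C KO muscle and 0 more positively, against 3.52% of all genes. Myh8 rose by 1.96 in lamin A/C KO and by 4.40 in emerin KO muscle (difference of the changes -2.44, limma adjusted p = 2.0e-05). Tubb6, a beta-tubulin, rose by 2.68 in lamin A/C KO and by 5.19 in emerin KO muscle (difference -2.51, limma adjusted p = 1.9e-05), and Tnfrsf12a, the receptor of the cytokine TWEAK, changed by -0.69 in lamin A/C KO and by 2.34 in emerin KO muscle (difference -3.03, limma adjusted p = 4.3e-05). Pla2g7, a secreted phospholipase of macrophages, changed by 3.30 in lamin A/C KO and by 0.42 in emerin KO muscle (difference 2.88, limma adjusted p = 2.0e-05). Myh8, Tubb6, Tnfrsf12a and Pla2g7 kept their calls with the Gapdh ratio as a covariate. The part of RNA quality beyond this ratio was not tested.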

How the data were processed

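Whole gastrocnemius muscle was measured on Affymetrix arrays, 1 array per sample. The authors deposited linear MAS5 signal intensity values, per the submitters' processing notes (no source used here names its version), and on every array their trimmed mean was 149.99 with 2% left out at each end. Values were rescaled to 500 (a factor of 3.334), and log2(signal + 32) was computed from the deposited intensity. Of 22690 probe sets, 20380 carried 1 gene symbol, 691 several and 1555 none, and 64 were array controls. Each of 12393 genes was read by its brightest probe set, with more than 1 to choose from for 4956 of them, and the 11164 that reached a signal of 100 on at least 2 arrays were tested. A probe set whose name ends in _x_at or _s_at may read related transcripts as well. Among genes without that remark in the text this holds, among others, for Plagl1, Cdk4, Rrm2, Cox8a, H2-Aa, S100a8, Vldlr, Ndn and Ighm.

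One limma model (version 3.58.1 in R 4.3.3, with intensity trend) had a mean for each of 9 groups over 23 arrays, 14 residual degrees of freedom and Benjamini-Hochberg adjustment over all genes tested. The script was tested on simulated data. The number of arrays limits the precision. The comparison and the lists were chosen with earlier results of these data known. Of 1182 listed symbols 1025 were tested. Named genes were the 15 largest rises and falls whose arrays did not overlap, up to 4 per direction and list and up to 2 that did not pass, and the 10 largest per direction of the other comparisons. The other 11 genes of the comparison with control, and Atp2a1, which was among the 5 brightest genes of day 0, stand outside the list rule, and the 11 were chosen after their values were seen. Same-numbered day 4 and day 0 arrays deviated together with correlations of 0.063, 0.171 and 0.2, which did not show that the numbers pair the samples. The alternatives changed the scaling, pseudocount, filter, probe set rule, test, covariate, arrays in the fit and replicate block. Promoters were taken from RefSeq for 8936 genes.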

Additional observations from a re-analysis of the deposited data

Results flagged for a closer look

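The change between day 4 and day 0 differed from that in control muscle for 23 genes by the interaction test of limma over all genes. In log2 units of lamin A/C KO minus control, Arhgap27 differed by 1.97 and Acvr1b by 1.15. Among muscle genes Sln differed by -3.49, Ankrd1 by -2.44, Myh8 by -2.30, Smtnl1 by -2.12, Myl3 by -1.96, Myh7 by -1.86, Flnc by -1.81, Myl4 by -1.67 and Tnnt2 by -1.45. The targeted gene Lmna differed by -2.11. The remaining genes were Serpinb1a at -2.36, Hspa1b at -2.18, Sh3bp4 at -2.01, S100a4 at -1.83, Afg3l1 at -1.72, Lgals3 at -1.58, Cyb5r3 at -1.51, Sat1 at -1.40, Carhsp1 at -1.37, Smoc1 at -1.36 and Sqstm1 at -0.84. Least stable were Lgals3, Myl3 and Tnnt2, which lost the call under 17 of 20 alternatives read gene by gene, and Smoc1 and Sqstm1, which lost it under 15. Lamin A/C KO muscle on day 0 is labelled as taken 0 days after injection and control muscle on day 0 as not injected, so that genotype and handling cannot be told apart on day 0.

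The change differed from that in emerin KO muscle for 699 genes, of which the 10 largest in each direction are given, as lamin A/C KO minus emerin KO. More positive were Serf1 at 3.42, Pla2g7 at 2.88, Med21 at 2.69, Adipoq at 2.60, Pdzrn3 at 2.43, Fbxl15 at 2.35, Sgk1 at 2.34, Myo7b at 2.28, Ptprcap at 2.27 and Acyp1 at 2.26. More negative were Tnfrsf12a at -3.03, Kcne1l at -2.91, Olfm1 at -2.76, Lmna at -2.64, Zfp385a at -2.60, Spsb2 at -2.53, Tubb6 at -2.51, Cort at -2.47, Myh8 at -2.44 and Aoah at -2.42. Of these 20 genes 9 kept their call under all alternatives read gene by gene. The fit of only the compared groups was read as a count alone, and it kept 398 of the 699 calls. The Gapdh 3'/5' ratios of the emerin KO arrays reached 5.30 on day 4. With this ratio as a covariate Serf1, Med21, Fbxl15, Sgk1, Myo7b, Ptprcap and Acyp1 among the more positive genes did not pass. Among the more negative, Cort and Aoah did not pass (limma adjusted p = 0.089 to 0.48 over all these genes). The part of RNA quality beyond this ratio was not tested.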

How the results depend on the processing

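The count of genes that differed between day 4 and day 0 in lamin A/C KO muscle stayed within 1.5 times of 4371 under all alternatives run, with 3670 to 4071 when 1 array was left out, and the count of list members past the threshold was 676, with 624 to 645 when 1 array was left out. Of 264 named genes past the threshold 229 kept the call under all alternatives. Replicate numbers were tried as a block. With the replicate block 4421 genes differed between day 4 and day 0 (2359 higher, 2062 lower), 231 between day 4 and day 3, 21 in the interaction with control and 706 in that with emerin KO. Each lamin A/C KO day 4 array deviated most like the day 0 array of its own number, with correlations of 0.063, 0.171 and 0.2. That is a weak hint from the data and not from the design, and it does not show that the numbers pair the samples. The block ended the call of Myl3 in the interaction with control (adjusted p = 0.054).

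Between day 4 and day 3 the count of 228 became 356 with the values as deposited, 137 with no intensity trend, 53 after adding the Gapdh ratio to the model and 380 when day 4 and day 3 arrays were fitted alone, and 56 to 177 without 1 array. The interaction with control gave 10 genes under median scaling, 11 without the trend and 8 to 24 without 1 array, against 23. The interaction with emerin KO gave 106 with the Gapdh ratio, 420 with only the compared groups and 263 to 1129 without 1 array, against 699. The cause of these shifts was not tested.

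The sign of a few day 4 minus day 0 differences turned. Under quantile normalization Actb was at 0.41, Actc1 at 0.16, Col1a2 at 0.39, Lmna at 0.022, Sparc at 0.61 and Tpt1 at 0.21. With the mean of all probe sets Atp2a2 was at 0.15, Ezr at 0.62, Ighm at -0.21, Lmna at 0.59, Ndn at -0.10, Rpl22 at -0.00263, Tpm3 at -0.78 and Utrn at -0.092, and Lmna was at -0.40 between day 4 and day 3. When 1 array was left out, the lowest and highest differences were -0.90 and 0.033 for Cd3d, -0.085 and 0.13 for Cd5l, -0.38 and 0.094 for Igfbp5, -0.21 and 0.12 for Lmna, -0.83 and 0.0042 for Mycn and -0.46 and 0.18 for Sparc. For the interaction of Emd with control they were -0.34 and 0.033.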
